A study of Mus musculus with 18 samples.

Results

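Heat shock and chaperone genes were followed in mouse E14 embryonic stem cells (mESCs) grown on hydrogels of different stiffness. The 10 genes were Hsp90aa1, Hsp90ab1, Hspa1a, Hspa1b, Hspa5, Hspa8, Hsph1, Hspb1, Dnajb1 and Bag3. They were chosen by symbol, and all 10 were found among the 46078 genes of the count table and among the 13438 protein-coding genes with enough counts for a test. E14 is a single established line of wild-type 129 background, so the libraries describe that line alone. Every group was held for 24 h in medium with serum and the cytokine LIF, on StemBond polyacrylamide hydrogels coated with fibronectin. The gels had a stiffness near 750 Pa (soft) or near 160 kPa (stiff), and either kind was made with 16 mM (low), 48 mM (mid) or 80 mM (high) of the co-factor AHA, which sets how firmly matrix protein is tethered to the gel. No group was left on tissue culture plastic or given a heat shock, so the comparisons are between substrates.

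Chaperones bind proteins that are unfolded or partly folded and keep them from aggregating until they reach their final shape. In the cytosol HSP70 proteins take up new or damaged chains together with J-domain partners, and HSP90 proteins finish the folding of kinases, receptors and other clients. When unfolded protein builds up, the transcription factor HSF1 binds heat shock elements in the promoters of these genes and raises their transcription. In the endoplasmic reticulum (ER) a separate set led by Hspa5 (BiP) serves secreted and membrane proteins, and its genes answer to the unfolded protein response through ER stress elements. Pluripotent cells are known for high constitutive levels of several cytosolic chaperones.

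Promoter windows of the genes that the results turn on are shown first, with the letters to which these regulators are known to bind. RefSeq promoter windows of 300 bases (250 before the transcription start and 50 after it, build GRCm38.p6) were found for 7 of the 10 genes. The windows below are printed 5′ to 3′ on the strand of the gene. In Hspa5 (chr2:34771840-34772139, plus strand) and Hsp90b1 (chr10:86705395-86705694, minus strand), which codes for the ER form of HSP90, capitals mark the ER stress element, CCAAT and CCACG spaced by 9 bases, on either strand. In Hspa1a (chr17:34972107-34972406, minus strand) and Hspa1b (chr17:34959189-34959488, minus strand) capitals mark the pair of heat shock units GAANNTTC.
Hspa5: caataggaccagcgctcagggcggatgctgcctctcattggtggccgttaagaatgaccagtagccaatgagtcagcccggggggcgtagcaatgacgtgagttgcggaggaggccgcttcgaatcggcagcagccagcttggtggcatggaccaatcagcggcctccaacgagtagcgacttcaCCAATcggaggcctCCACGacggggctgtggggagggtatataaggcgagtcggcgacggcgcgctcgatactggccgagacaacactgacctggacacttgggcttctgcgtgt
Hsp90b1: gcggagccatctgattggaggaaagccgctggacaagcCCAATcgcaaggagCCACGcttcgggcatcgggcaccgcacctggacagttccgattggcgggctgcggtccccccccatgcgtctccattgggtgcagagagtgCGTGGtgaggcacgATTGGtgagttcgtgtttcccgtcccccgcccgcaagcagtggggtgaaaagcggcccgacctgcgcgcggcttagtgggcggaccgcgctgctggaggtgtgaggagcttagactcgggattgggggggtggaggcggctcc
Hspa1a: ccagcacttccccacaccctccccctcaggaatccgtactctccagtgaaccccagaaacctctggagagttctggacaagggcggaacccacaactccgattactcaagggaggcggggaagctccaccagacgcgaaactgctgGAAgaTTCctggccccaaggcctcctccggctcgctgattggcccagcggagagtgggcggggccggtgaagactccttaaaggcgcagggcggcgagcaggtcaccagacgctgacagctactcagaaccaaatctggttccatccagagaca
Hspa1b: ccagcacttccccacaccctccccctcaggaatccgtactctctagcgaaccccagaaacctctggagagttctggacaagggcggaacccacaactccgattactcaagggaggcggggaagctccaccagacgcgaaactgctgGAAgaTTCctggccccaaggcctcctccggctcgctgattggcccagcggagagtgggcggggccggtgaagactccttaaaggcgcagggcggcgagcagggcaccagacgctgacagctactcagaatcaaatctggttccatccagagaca
The windows of the inducible HSP70 genes Hspa1a and Hspa1b differed at 4 of 300 bases, and both held the pair GAAGATTC at position -104, counted so that the transcription start is +1. Among the 7 genes with a window, 5 held GAANNTTC on either strand (Hspa1a, Hspa1b, Hspb1, Hsph1 and Bag3), against 7.86% of all 32851 windows in the table. Hspb1 held it at 2 places, GAAGTTTC at position -117 and GAACCTTC at position -97. A heat shock element of 3 alternating units (GAANNTTCNNGAA or its complement, which contains the pair) was matched in Hsph1, as TTCTGGAAAGTTC, and in 0.603% of all windows. The ER stress element was matched in Hspa5 at position -65, and in 0.119% of all windows. Dnajb1 had none of these letters in either of its windows. A gene among the 7 was counted if any of its windows matched. The shares over all are of windows, 32851 of them from 27025 genes, so the units differ. A match is a string of letters and was not shown to be bound in these cells.

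RNA was measured as reads per gene in 18 libraries, 3 in each of the 6 groups. Gene counts ranged from 5850621 to 9290261 per library. Library 1 of the soft, high AHA group stood apart with 1.37% of its counts from ERCC spike-in RNA, against 0.607 to 0.725% in the other 17, and was left out, so that 8 soft and 9 stiff libraries were compared and the soft, high AHA group held 2. The 5 stem cell markers Pou5f1, Sox2, Nanog, Zfp42 and Esrrb summed to 1466 to 1624 CPM (counts scaled to a common library total) on soft and 1324 to 1424.5 CPM on stiff substrates, with 4 of them higher on soft substrates. The 7 fibroblast markers summed to 114 to 197 CPM on soft and 166 to 237.5 CPM on stiff substrates, most of it Col1a1. Lum was at 0 in all 8 soft libraries. Among the 7 markers, 1 or 2 were at 0 in each soft library and 0 to 2 in each stiff library. The 5 primitive endoderm markers summed to 31.1 to 43.9 CPM on soft and 32.04 to 39.4 CPM on stiff substrates. In all 16 pairs of replicates compared the mean chi-square per gene, which counting noise alone would set near 1, was 1.85 to 3.03. Separate preparations of one RNA could also exceed 1. Nothing in the labels says that they were separate cultures, so p-values measure the spread between these libraries. In bulk RNA, fewer cells that express a gene and less RNA per cell cannot be told apart.

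The 10 genes covered much of the range of expression of the tested genes, from rank 2 to rank 11284 of 13438 per kilobase of exon. Per kilobase of exon, Hsp90ab1, the constitutive cytosolic HSP90, averaged 3043 CPM per kb over the 17 libraries and ranked 2 of 13438 tested genes on that scale. Hsp90aa1, its heat-inducible paralog, followed with 540 CPM per kb and rank 22. Hspa5 (174 CPM per kb) and Hspa8 (170 CPM per kb), the constitutive cytosolic HSP70, lay next to each other at ranks 131 and 140, and their libraries overlapped. The small heat shock protein gene Hspb1 had 126 CPM per kb, and Hsph1, an HSP110 nucleotide exchange factor for HSP70, had 62.6 CPM per kb. Bag3, a co-chaperone that links HSP70 to autophagy, and Dnajb1, the main inducible J-domain partner of HSP70, had 35.9 and 25.5 CPM per kb, with libraries that overlapped. The stress-inducible HSP70 genes were lowest, at 3.26 CPM per kb for Hspa1b and 0.962 CPM per kb for Hspa1a.

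**Figure D1:**
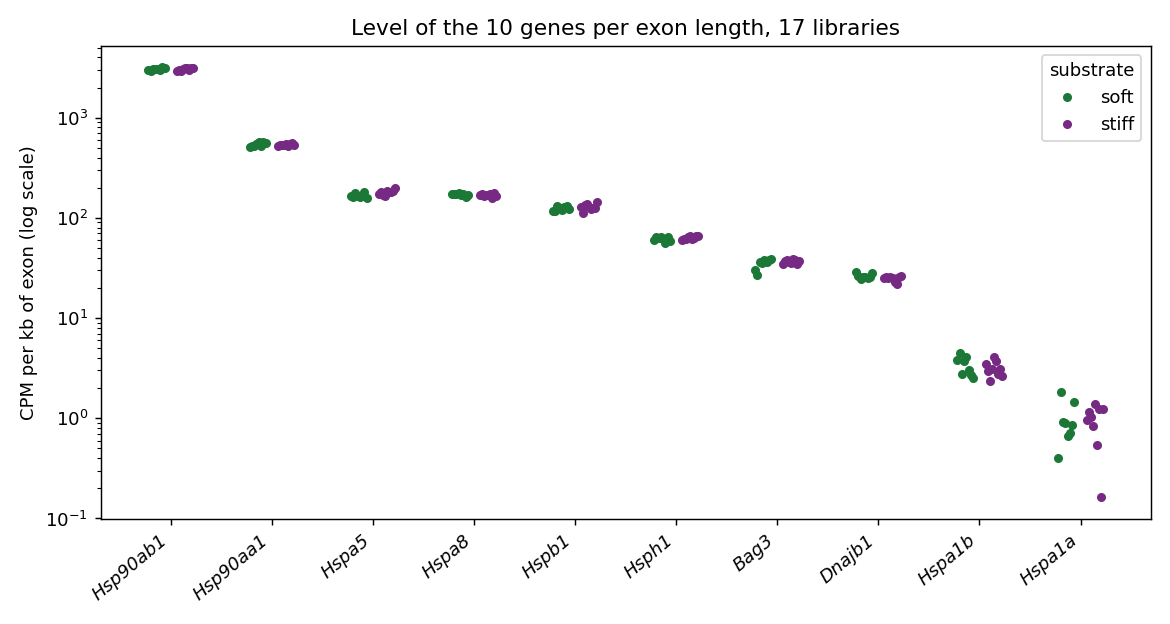
Level of each gene in CPM per kilobase of exon, on a log scale, with 1 point per library (8 soft, 9 stiff) and genes ordered by mean. Hsp90ab1 averaged 3043 CPM per kb and Hspa1a 0.962 CPM per kb, and soft and stiff libraries overlapped for each of the 10 genes.

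Between soft and stiff substrates averaged over AHA, 1 of the 10 genes changed: Hspa5 fell on soft substrates. In this comparison 8.59% of all tested genes were called at an adjusted p under 0.05 (edgeR quasi-likelihood test, Benjamini-Hochberg over all 13438 genes), with 4.82% lower and 3.77% higher on soft substrates, so 1 call among 10 is close to the background. The median log2 fold change of the 10 genes was 0.0030 beside 0.0011 over all tested genes, and the median size of the change was 0.041 beside 0.086. Soft and stiff libraries overlapped for all 10, and 1.27% of all tested genes had soft and stiff libraries that did not overlap. At low AHA alone 0 of the 10 were called (3.04% of all genes were), at mid AHA 0 (2.86%) and at high AHA 0 (0.841%), with 1 of the 10 at an unadjusted p under 0.05 in each, where 13.1%, 13.6% and 10.5% of all genes were at low, mid and high AHA. DESeq2 also called 0 at each AHA, with no adjusted p for 1 or 2 of the genes.

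**Figure D2:**
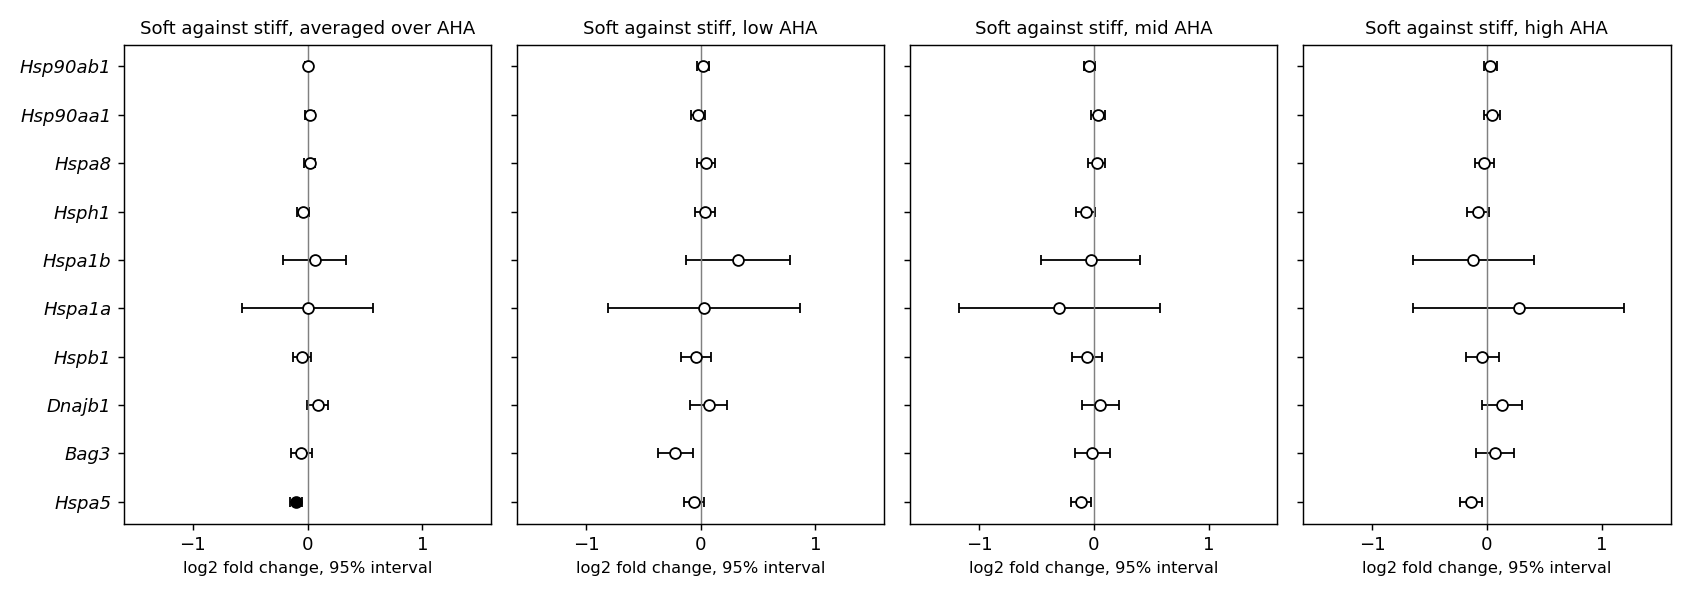
Log2 fold change of each gene, soft against stiff, with its 95% interval, averaged over AHA and at low, mid and high AHA. The filled point, Hspa5 averaged over AHA at -0.10, is the only value of the 40 plotted with an adjusted p under 0.05, and the wide intervals belong to Hspa1a and Hspa1b.

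Hspa5 codes for BiP, the HSP70 of the ER, which binds nascent secretory chains and holds the stress sensors of the unfolded protein response inactive. Gene ENSMUSG00000026864 lies at chr2:34771970-34777547 on the plus strand (GRCm38). On soft, low AHA substrates its 3 libraries read 697, 680 and 745 CPM. At soft, mid AHA they read 703.7, 687 and 697 CPM, and at soft, high AHA the 2 libraries used read 772 and 674 CPM. The 3 soft groups thus had like levels, with means from 696 to 723 CPM. On stiff substrates the values were 727, 766 and 720 CPM at low AHA. They were 694, 787 and 770 CPM at mid AHA and 765, 783 and 839 CPM at high AHA. The stiff means stood in the order of AHA, from 738 to 750 and 796 CPM, although neighbouring groups in that order overlapped. All stiff libraries but 1 of the mid AHA group stood above 6 of the 8 soft libraries, and the remaining 2 soft libraries fell among them.

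Averaged over AHA, Hspa5 was 707 ± 33.9 CPM (SD) in the 8 soft libraries and 761 ± 43.0 CPM (SD) in the 9 stiff ones, a log2 fold change of -0.10 ± 0.026 (SE, 95% interval -0.15 to -0.051, adjusted p = 0.00353 by edgeR) and a fold of 0.932. The difference was -0.060 at low AHA (adjusted p = 0.611), -0.11 at mid AHA (adjusted p = 0.180) and -0.14 at high AHA (adjusted p = 0.178), lower on soft each time. A change of that difference with AHA was not detected (interaction, adjusted p = 0.964). High against low AHA gave 0.11 ± 0.042 on stiff substrates (adjusted p = 0.661) and 0.033 ± 0.047 on soft substrates (adjusted p = 0.906). Without library 3 of the soft, high AHA group, its lowest library, Hspa5 was no longer called (-0.071, adjusted p = 0.0729). Without library 2 of that group it stood at -0.14 (adjusted p = 1.409e-05), and with all 18 libraries it was -0.10 (adjusted p = 0.00091).

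The cytosolic HSP90 genes differed little between stiffnesses, and their intervals were the narrowest of the 10. Hsp90ab1 (chr17:45567775-45573271, minus strand) ranged from 8835 to 9521 CPM around a median of 9102 CPM on soft and from 8795 to 9410 CPM around 9198 CPM on stiff substrates. The average difference was 0.0036 (95% interval -0.026 to 0.034, adjusted p = 0.934). Hsp90aa1 (chr12:110690605-110702728, minus strand) ranged from 2013 to 2265 CPM on soft and from 2042 to 2223 CPM on stiff substrates, with a difference of 0.018 (interval -0.019 to 0.056, adjusted p = 0.657).

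With AHA, both HSP90 genes had their lowest means at low AHA. Hsp90aa1 read 2013, 2071 and 2072 CPM at soft, low AHA, then 2151, 2231 and 2056 CPM at soft, mid AHA and 2265 and 2201 CPM at soft, high AHA. On soft substrates the low and high AHA libraries of 5 of the 10 genes did not overlap, with Hsp90aa1, Hsp90ab1 and Bag3 above at high AHA and Hspa8 and Hspa1b below, beside 24.7% of all tested genes for these 3 against 2 libraries. High against low AHA on soft substrates gave 0.12 ± 0.035 for Hsp90aa1 (SE, interval 0.052 to 0.19), which missed the threshold (adjusted p = 0.131). For Hsp90ab1 the same comparison gave 0.065 ± 0.028 (adjusted p = 0.479), and on stiff substrates 0.055 ± 0.025 (adjusted p = 0.802). Among the 3 AHA comparisons on soft substrates 0 of the 10 genes were called by edgeR or by DESeq2 (which gave no adjusted p for up to 4 of them), where edgeR called 0.260% of all genes in at least 1. On stiff substrates 0 of the 10 were called by either tool (0.0149% of all genes by edgeR). At an unadjusted p under 0.05, 4 of the 10 passed for high against low AHA on soft substrates (8.51% of all genes) and 3 on stiff (6.04%). The test that the 3 soft against stiff differences were equal across AHA called 0 of the 10 genes with either tool (0.0298% of all genes with edgeR), and 1 of them, Bag3, had an unadjusted p under 0.05 (6.71% of all genes).

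Hspa8, Hsph1, Dnajb1 and Hspb1 had no called difference between stiffnesses. Hspa8 (chr9:40800984-40810087, plus strand) ranged from 690 to 760 CPM on soft and from 683 to 758 CPM on stiff substrates (difference 0.017, interval -0.029 to 0.062, adjusted p = 0.759). Its lowest group was soft, high AHA, at 690 and 720.5 CPM, and its highest soft, mid AHA, at 760, 734 and 753 CPM. The group means differed by a factor of 1.06 from lowest to highest, close to the span of Hsp90ab1. Hsph1 ranged from 409 to 469 CPM on soft and from 435 to 482 CPM on stiff substrates (difference -0.036, interval -0.088 to 0.015, adjusted p = 0.470). Dnajb1 averaged 84.1 CPM in soft libraries (SD 4.65) and 79.4 CPM in stiff ones (SD 4.89), and had the highest positive difference of the 10, 0.087 (interval -0.0074 to 0.18, adjusted p = 0.303). Hspb1, whose product binds unfolded protein without using ATP, was 120 to 136 CPM on soft and 114 to 147 CPM on stiff substrates (difference -0.045, interval -0.12 to 0.034, adjusted p = 0.586). These intervals bound the changes and do not show that the levels were equal.

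**Figure D3:**
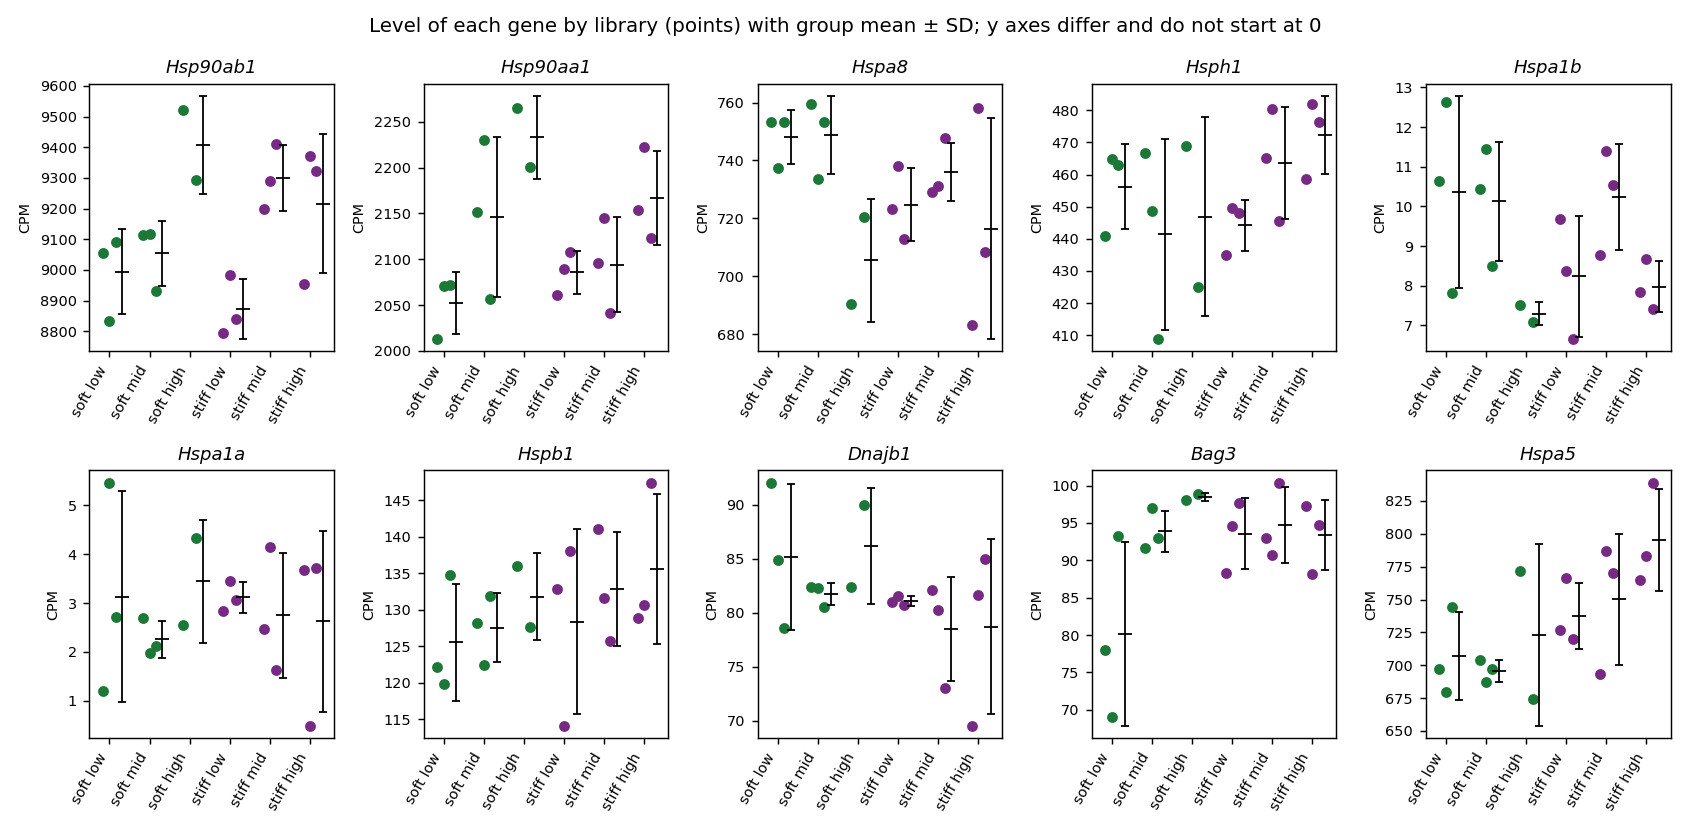
CPM of each gene in the 17 libraries by group (green, soft, and purple, stiff), with the group mean and SD drawn beside the points on axes that differ between genes and do not start at 0. Hspa5 was lower in most soft libraries, Bag3 was low in 2 of the 3 soft, low AHA libraries (69.0 and 78.0 CPM), and soft and stiff libraries overlapped for each of the 10 genes.

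Bag3 (chr7:128523616-128546981, plus strand) had its lowest group at soft, low AHA. There its 3 libraries read 78.0, 69.0 and 93.3 CPM, of which the first 2 were below every other library. At soft, mid AHA it read 91.7, 97.0 and 93.0 CPM, and at soft, high AHA 98.0 and 98.9 CPM. The 9 stiff libraries lay between 88.2 and 100.4 CPM and overlapped with library 3 of the soft, low AHA group. Soft against stiff at low AHA gave -0.22 ± 0.079 (SE, adjusted p = 0.126), and high against low AHA on soft substrates 0.30 ± 0.086 (adjusted p = 0.134). Neither passed the threshold, and the interaction did not (adjusted p = 0.729). Without library 3 of the soft, low AHA group both passed, at -0.34 (adjusted p = 0.00928) and 0.42 (adjusted p = 0.00993), and without library 2 they were -0.12 (adjusted p = 0.674) and 0.20 (adjusted p = 0.549). Averaged over AHA the difference was -0.054 (interval -0.14 to 0.038).

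Hspa1a (chr17:34969190-34972156) and Hspa1b (chr17:34956436-34959238), both on the minus strand and both known as genes that heat induces strongly, were present at a low level in every group. Hspa1a had 2 to 29 counts per library and Hspa1b 34 to 67 among the 17 libraries. Hspa1b read 10.6, 12.6 and 7.81 CPM at soft, low AHA, 10.4, 11.5 and 8.50 CPM at soft, mid AHA and 7.51 and 7.09 CPM at soft, high AHA. It was 6.65 to 11.4 CPM over the 9 stiff libraries. Soft against stiff gave 0.060 for Hspa1b (interval -0.21 to 0.33, adjusted p = 0.869) and 0.0024 for Hspa1a (interval -0.57 to 0.57, adjusted p = 0.998). At this depth the interval of Hspa1a is wide, so a difference of that gene is bounded only loosely.

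Several of the 10 genes share sequence with other genes, which limits how well reads could be placed. Of the stretches of 50 bases in the transcripts of Hspa1a, 66.3% also occurred in transcripts of another gene, mostly Hspa1b, and 62.3% of those of Hspa1b did, so the counts of these paralogs are uncertain. In Hspa1a 19.0% of the exon bases also lay opposite the gene Gm20481. For Hsp90aa1 the shared part was 47.5%, most of it with the processed pseudogene Gm12346, which itself had 561 CPM on soft and 542 CPM on stiff substrates. The pseudogene Gm5844, which also shares sequence with Hsp90aa1, had 187 and 175 CPM and rose on soft substrates (0.10 ± 0.034, adjusted p = 0.0428) when all annotated genes were tested. Hspa8 shared 39.4% and Hspb1 50.1%, again mainly with pseudogenes, and Hsp90ab1 3.44%. Hspa5, Hsph1 and Bag3 shared 0.0% with any other gene.

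The genes that serve the ER with Hspa5 were lower on soft substrates in part. Of 20 ER chaperone and folding enzyme genes tested, 8 fell and 0 rose on soft substrates, and 12 did not pass, against 4.82% of all tested genes that fell. The list median was -0.083, beside 0.0011 over all genes. Serpinh1 (HSP47), a chaperone for collagen, changed most, with 143 ± 8.46 CPM (SD) in stiff and 110 ± 14.1 CPM (SD) in soft libraries (-0.36 ± 0.041, adjusted p = 2.86e-12). Manf, a secreted factor that binds BiP, was 116 ± 5.83 CPM on stiff and 102 ± 7.67 CPM on soft substrates (-0.19 ± 0.042, adjusted p = 0.00051). P4hb, a protein disulfide isomerase, fell by 0.11 on the log2 scale (adjusted p = 0.00014), and Dnajc10, a J-domain reductase that works with BiP, fell by 0.12 (adjusted p = 0.0446), a call lost in 16 of 22 alternative settings. Hsp90b1, whose promoter is shown above and which was chosen for that after its value was seen, fell by 0.080 (adjusted p = 0.00448).

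The size of this ER group depended on the processing and on single libraries. Hyou1, another of the 8, lost its call in 17 of 22 alternative settings. The size was 7 genes with RLE size factors and with DESeq2. With a minimum of 2 counts in all, and with all annotated genes, the size was 6. It went from 8 genes to 3 (Manf, P4hb and Serpinh1) without library 3 of the soft, high AHA group, to 4 without library 2 of the stiff, mid AHA group and to 5 without library 2 of the soft, low AHA group. Col1a1, a client of Serpinh1 and one of the fibroblast markers, moved with it, going from 155 ± 20.1 CPM on stiff to 109 ± 24.6 CPM on soft substrates (-0.49 ± 0.085, adjusted p = 0.00282), and 1 of the 5 fibroblast markers tested fell. All 7 fibroblast markers summed to 145 ± 30.2 CPM (SD) in soft and 194 ± 22.5 CPM (SD) in stiff libraries. Soft means were 129, 130 and 190.5 CPM at low, mid and high AHA, and stiff means 202, 198 and 182.5 CPM. The summed level was thus not lower on soft substrates at high AHA. The 5 tested markers had a median log2 fold change of -0.13, with values from -0.49 to 0.54. The part of these markers in the ER result was not tested. Letters of the ER stress element were found in the windows of 6 of 16 ER genes with a window, Hsp90b1 and Pdia6 among those that fell and Calr, Canx, Creld2 and Dnajc3 among those that did not pass.

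The regulators of both responses were also listed. Among 13 genes of the unfolded protein response and ER degradation 1 fell, Syvn1, the ubiquitin ligase HRD1 (-0.22 ± 0.060, adjusted p = 0.00682), and 0 rose, a count near the 8.59% called over all genes. Xbp1, a transcription factor of that response, gave -0.046 (adjusted p = 0.653) and Atf6 -0.018 (adjusted p = 0.903). Of 5 heat shock factors and regulators 0 passed with edgeR or DESeq2 (which gave no adjusted p for 1), and 1 had an unadjusted p under 0.05 (20.5% of all genes did in this comparison). Hsf1 was 60.3 ± 3.47 CPM on soft and 58.3 ± 6.58 CPM on stiff substrates (0.050, adjusted p = 0.695), and Hsf2 76.6 ± 5.45 and 70.8 ± 5.09 CPM (0.12, adjusted p = 0.141). RNA of Hsf1 does not report the activity of its protein, which is set after translation.

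The remaining lists hold chaperones of the cytosol and mitochondria. Averaged over AHA, edgeR called 8.59% of all tested genes between soft and stiff substrates, and 20.5% had an unadjusted p under 0.05. Of 14 further cytosolic HSP70, HSP110 and J-domain genes 1 fell (Dnaja2, -0.080, adjusted p = 0.0309, lost in 10 of 22 alternative settings), and of 21 co-chaperones of HSP70 and HSP90 1 rose (Sugt1, 0.13, adjusted p = 0.00846). With edgeR and with DESeq2, 0 of 5 small heat shock protein genes passed (1 at an unadjusted p under 0.05, and 3 without an adjusted p in DESeq2). Likewise 0 of 13 CCT chaperonin and prefoldin genes, which fold actin and tubulin, passed with either tool, and 0 had an unadjusted p under 0.05. In mitochondria 2 of 12 passed, with the protease Lonp1 higher (0.10, adjusted p = 0.0213) and the co-chaperonin Hspe1 lower on soft substrates (-0.17, adjusted p = 0.0194), and 6 had an unadjusted p under 0.05. DESeq2 called 1 of these 12, Lonp1. The Hspe1 call was lost in 6 and the Lonp1 call in 4 of the 22 settings, while Sugt1 and Syvn1 kept theirs in all 22. Over all 103 related genes tested 13 passed, 2 higher and 11 lower on soft substrates, beside 8.59% of all genes. This count went to 7 without library 3 of the soft, high AHA group and to 8 without library 2 of the stiff, mid AHA group. Immediate early genes, which respond to serum, handling and stress within minutes, differed in both directions. Of 11 tested, Fos (0.81) and Atf3 (0.36) rose on soft substrates, and Ier3 (-0.86), Fosl1 (-0.35) and Dusp1 (-0.16) fell. DESeq2 called 3 of these 5, without Fosl1 and Dusp1, whose calls were lost in 14 and 9 of the 22 settings, and Atf3 lost its call in 2. Of the Fosl1 exon bases 57.2% lie opposite Ccdc85b, so its reads are uncertain. Whether their change bears on the chaperone values was not tested.

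**Figure D4:**
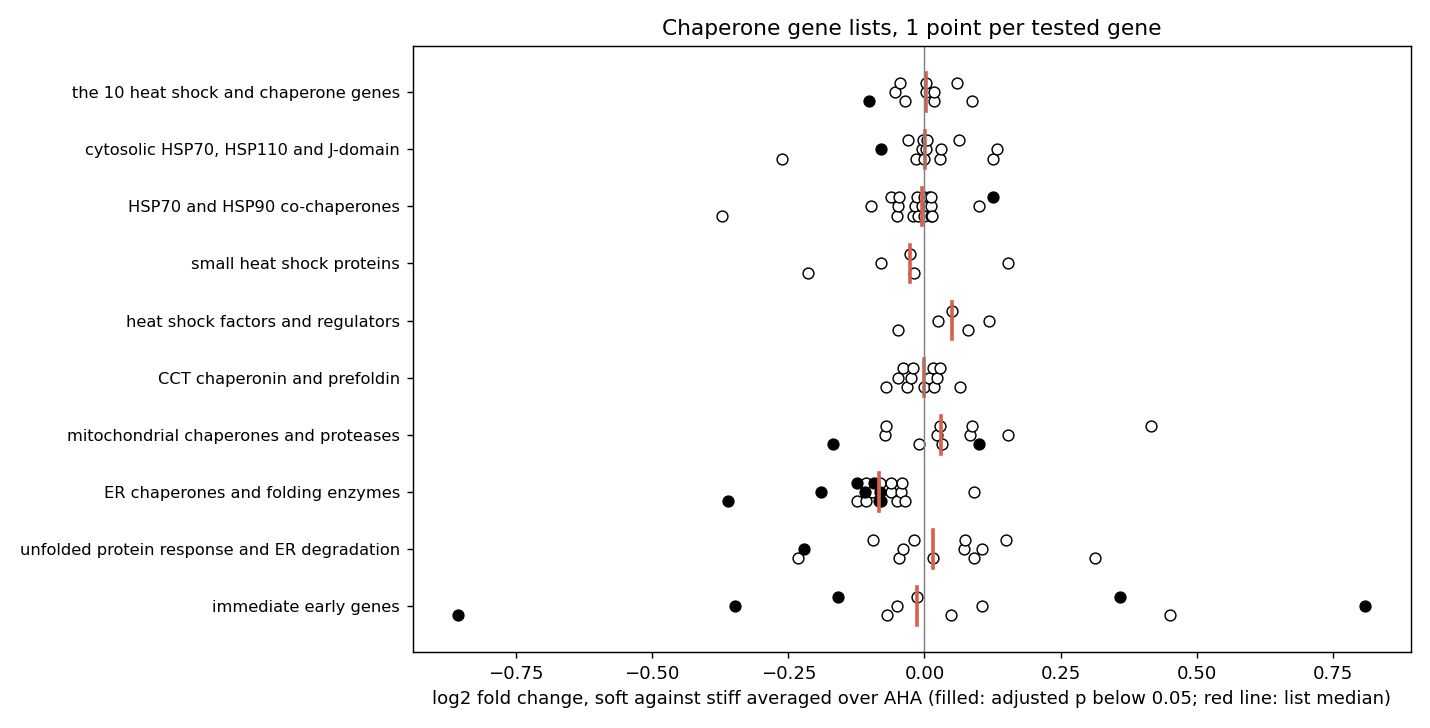
Log2 fold change, soft against stiff averaged over AHA, for each tested gene of the chaperone lists and of the immediate early genes (filled, adjusted p under 0.05), with the list median as a red line. The 10 heat shock and chaperone genes centre on 0.0030 with Hspa5 as the filled point, and the ER list is shifted to a median of -0.083.

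Across the 17 libraries the 10 genes did not move as one block. Of the 45 pairs of genes, 2 had a Pearson r of log2 CPM above 0.5, Hspa5 with Hsph1 (0.558) and Hsp90aa1 with Hsp90ab1 (0.518), and 24 were below 0. The lowest was Bag3 with Hspa1b, at -0.593, where Hspa1b has few counts. The genes whose pattern was most like Hspa5 were Ufm1 (r = 0.830), Lin28a (0.8285), Rhbdf1 (0.826), Serp1 (0.824) and Tsfm (0.822). For the mean of the other 9 genes they were Pih1d2 (0.883), Zfp661 (0.870), Per3 (0.838), Dyrk2 (0.787) and Angel2 (0.784), a mean whose swings come largely from Hspa1a with its 2 to 29 counts. These values describe 17 libraries that share depth, scaling and the contrast between substrates.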

How the data were processed

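RNA of E14 mESCs from 6 substrates was sequenced by the study, with groups as the labels give them. The deposited values are raw counts per gene. Per the labels and the study's methods, the authors trimmed reads with Trim Galore 0.4.4, aligned them with GSNAP to GRCm38/mm10 and counted them per Ensembl gene with HTSeq, and the submitters' processing notes also name DESeq2. Libraries were made from total RNA with a pico-input kit. Whether HTSeq used read strand is not given in the sources used here, so overlaps between strands were treated as uncertain. HTSeq summary lines (61.5 to 64.0% of each column) stayed out of library sizes and tests. Spike-in counts set the rule for leaving out a library, an ERCC share over 1.5 times the median.

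Symbols, exon lengths and coordinates came from GENCODE M21 (GRCm38), which named 45143 of 46078 genes. The fit took the protein-coding genes kept by filterByExpr at a minimum count of 10. It used TMM scaling and edgeR 4.0.16 in R 4.3.3 (robust quasi-likelihood, 1 coefficient per group, 17 libraries). CPM are counts scaled to a common total with TMM. P-values were adjusted by Benjamini-Hochberg over all 13438 genes of a comparison, with a threshold of 0.05, and standard errors came from the F statistic. The fit was tested on simulated data. The biological coefficient of variation was 5.35%. Pearson r used log2 CPM with a prior count of 2. Alternatives were RLE size factors, DESeq2 1.42.0, a minimum of 2 counts in all, all 18 libraries, all annotated genes, only the 2 groups compared, and each library left out in turn.

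How often the calls of listed genes were lost was counted after those calls were seen. The 10 genes and the gene lists were chosen with earlier results of these data known. Genes named were the 10, Hsf1, Hsf2, Xbp1 and Atf6, up to 4 called genes per list with the largest average change, and the 5 most similar patterns. Hsp90b1, Hyou1, Pdia6, Calr, Canx, Creld2, Dnajc3, Dusp1 and Col1a1 and the pseudogenes were named after their values were seen.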

Additional observations from a re-analysis of the deposited data

How the results depend on the processing

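The settings were run for the 10 genes and the related lists. Scaling with RLE, DESeq2, the looser filter and all annotated genes left the count of genes called as given, 1 of 10 averaged over AHA (Hspa5) and 0 elsewhere. With all 18 libraries Hspa5 was also called at high AHA, which made that count 1 (-0.15, adjusted p = 0.0292). Leaving out each library in turn gave 0 to 1 averaged over AHA, 0 to 1 at low AHA (Bag3, without soft, low AHA library 3), 0 to 1 at mid AHA (Hspa5, without stiff, mid AHA library 1), 0 to 1 at high AHA (Hspa5, without soft, high AHA library 2) and 0 to 1 over the AHA comparisons on soft substrates (Bag3, without soft, low AHA library 3), and 0 for those on stiff substrates and for the interaction. The related genes called ranged from 7 to 15 around 13 and the ER genes that fell from 3 to 9 around 8. Settings for the ER list were added after its count was seen. Hspa5 kept its direction in 22 of 22 settings (-0.14 to -0.071, adjusted p 1.409e-05 to 0.0729), with the call lost once, at -0.071 without soft, high AHA library 3. Of the other 9 genes none was called averaged over AHA in any of the 22. No paired analysis was possible because the labels give no replicate number shared between groups. Where a group is left with 1 library (soft, high AHA), that library is assumed to vary like the others. Depth limits Hspa1a, whose 2 to 29 counts leave an interval of -0.57 to 0.57.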
